A study of Rattus norvegicus with 156 samples.

Results

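The 6 genes described here encode C1, the protein complex that starts the classical complement pathway, and the inhibitor that holds it in check: the C1q chains C1qa, C1qb and C1qc, the proteases C1r and C1s, and C1 inhibitor, Serping1. They were chosen by name, taking every probe set that the arrays assign to 1 of these 6 symbols. That gave 10 of the 26379 probe sets of the array set, and 6 of its 10969 named genes. Their signal was followed through 52 RNA pools of nervous tissue from naive, sham-operated and ligated rats. In ligated rats the L5 and L6 spinal nerves were tied, which serves as a model of neuropathic pain.

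C1q recognises antibody, damaged cells and other surfaces, and carries a pair each of C1r and C1s, which are cleaved in turn when C1q binds. Active C1s cuts C4 and C2, which leads to cleavage of C3, and C1 inhibitor stops the process by binding both proteases irreversibly. In the nervous system C1q is known mainly as a product of microglia and macrophages, while C1r, C1s and C1 inhibitor are also made by fibroblasts and other stromal cells.

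Each RNA pool was hybridised to the 3 rat U34 arrays, named A, B and C, which carry different probe sets. The 5 treatments were naive rats given vehicle, naive rats given gabapentin (naive GPN), sham-operated rats given vehicle, ligated rats given vehicle (SNL) and ligated rats given gabapentin (SNL GPN). Sham surgery exposed the spinal nerves without tying them, and naive rats had no surgery. Gabapentin, which is prescribed for epilepsy and neuropathic pain, was injected intraperitoneally at 100 mg/kg once a day on 7 days, with saline as vehicle, and tissue was taken 19 to 21 days after surgery. Ligated rats entered the study only if their paw withdrawal threshold had fallen on days 12 to 14. The labels used here give neither strain nor age.

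Each treatment had 1 pool per tissue, made from 4 to 6 rats, so that no treatment had a replicate. The ligation tests compared 2 ligated pools with 3 unligated ones, or with 2 in contralateral L5 and L6 DRG. P-values therefore measure the spread between pools that differ in drug and surgery too. The 11 compartments were the dorsal root ganglia (DRG) of L4, L5 and L6, the sciatic nerve at mid thigh and the spinal cord, each on the ligated (ipsilateral) and the other (contralateral) side, and the brain. The naive contralateral L6 DRG, the naive GPN contralateral L5 DRG and the SNL contralateral nerve were not analysed here. L5 and L6 ganglia hold the cell bodies of axons that run through the ligated nerves, whereas L4 axons run through an intact spinal nerve.

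Signal in the text is the deposited intensity after quantile normalization across pools, and changes are differences of log2(signal + pseudocount), so folds of dim genes are understated. Intensities of different probe sets are not comparable, so levels were compared across pools and not between genes. The median intensity of a deposited array lay between 13 and 62.2 for A, 8.1 and 47.2 for B, and 14.5 and 53.3 for C. The ratio of the 3′ to the 5′ probe set of Gapdh, which rises when RNA is degraded, was 8.07 in the naive and 3.96 in the sham pool of the ipsilateral nerve, against 1.65 in naive GPN and 1.72 to 1.74 in the ligated pools. It was 3.40 in the sham contralateral L4 DRG. In the ipsilateral L5 DRG it was 1.08 to 1.16 in the ligated pools and 1.18 to 1.32 in the others.

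The RefSeq gene table of assembly GRCr8 places C1qb, C1qc and C1qa next to each other on chromosome 5, C1r and C1s next to each other on chromosome 4, and Serping1 on chromosome 3. RefSeq promoters of GRCr8, each 250 bases before to 50 bases after the gene's start, were available for 3 of the 6 genes. They are shown because C1qa and C1qb had similar profiles over the pools while C1r had another. Capitals mark matches, on either strand, to the motifs GAGGAA (core of the sites of the myeloid factor PU.1), GGAAGT (an ETS core) and TTCNNNGAA (a STAT core).

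C1qa, chr5:154419884-154420183, minus strand: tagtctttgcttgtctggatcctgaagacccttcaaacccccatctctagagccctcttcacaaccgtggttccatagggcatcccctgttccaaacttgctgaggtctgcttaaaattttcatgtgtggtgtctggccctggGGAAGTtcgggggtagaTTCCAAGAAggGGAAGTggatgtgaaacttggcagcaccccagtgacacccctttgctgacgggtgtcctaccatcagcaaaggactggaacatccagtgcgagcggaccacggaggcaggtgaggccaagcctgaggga
C1qb, chr5:154407778-154408077, minus strand: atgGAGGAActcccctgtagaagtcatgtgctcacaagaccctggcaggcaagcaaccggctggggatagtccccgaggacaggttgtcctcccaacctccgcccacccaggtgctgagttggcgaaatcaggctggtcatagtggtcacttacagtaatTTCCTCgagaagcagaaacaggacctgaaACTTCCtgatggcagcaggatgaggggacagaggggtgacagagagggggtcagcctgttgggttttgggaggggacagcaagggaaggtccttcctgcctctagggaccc
C1r, chr4:159098763-159099062, plus strand: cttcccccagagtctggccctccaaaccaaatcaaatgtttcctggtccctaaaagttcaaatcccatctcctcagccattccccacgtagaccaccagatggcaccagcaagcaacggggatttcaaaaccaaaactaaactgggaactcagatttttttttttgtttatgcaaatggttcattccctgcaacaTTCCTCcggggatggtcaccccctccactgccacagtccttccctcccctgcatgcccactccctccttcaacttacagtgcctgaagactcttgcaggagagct

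GGAAGT occurred in the C1qa window from -107 to -102 and from -79 to -74 relative to the gene's start, with TTCNNNGAA between them from -90 to -82. C1qb had GAGGAA from -247 to -242 and, reversed, from -90 to -85, and a reversed GGAAGT from -61 to -56. C1r had a single reversed GAGGAA from -55 to -50. These motifs are short and common: of 33469 promoter windows of this length, 27.6% held GAGGAA, 22.6% held GGAAGT and 8.87% held TTCNNNGAA. TGANTCA (an AP-1 site, in 7.33% of windows) and the interferon-stimulated response element (a pair of GAAA blocks parted by any 2 bases, in 3.92%) were not in these 3 windows, and no matches overlapped. The longest run of bases shared by C1qa and C1qb was 8, no longer than those each shared with C1r (10 and 9). The matches describe the sequences only and were not tested for binding.

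In rats without ligation the members fell into 2 patterns over the tissues. C1qa and C1qb were higher in spinal cord than in DRG, and C1r was higher in DRG than in spinal cord. In the sciatic nerve 5 of the 6 genes were above their DRG and brain levels, and C1qc, as read by its brightest probe set, differed little anywhere. Each tissue mean below is over 3 treatments (naive, naive GPN and sham), after averaging both sides of nerve and cord and the 4 DRG compartments that all of these treatments had.

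C1qa, the A chain of C1q, had a signal of 218.6 ± 44.8 (SD, n = 3) in sciatic nerve, 174.6 ± 19.3 in spinal cord, 91.4 ± 11.6 in brain and 64.8 ± 8.04 in DRG. C1qb followed the same order, with 317.7 ± 87.0 in nerve, 163.8 ± 16.8 in cord, 76.0 ± 46.9 in brain and 41.8 ± 5.15 in DRG. Both chains were lower in DRG than in cord, C1qa 2.57-fold (log2 -1.36, SE 0.15, adjusted p = 1.35e-05) and C1qb 3.54-fold (log2 -1.82, SE 0.37, adjusted p = 0.00200). Nerve and cord, their neighbours at the top of the order, were not separated for either chain: the log2 difference was 0.30 (SE 0.15, adjusted p = 0.117) for C1qa and 0.90 (SE 0.37, adjusted p = 0.0575) for C1qb. The sign of the C1qa difference depends on the scaling, being -0.55 at the deposited scaling, at which the median probe set was itself -0.65. Brain and DRG differed by 0.47 for C1qa (brain higher, SE 0.15, adjusted p = 0.0274), a call lost without the naive pools (0.49, adjusted p = 0.0826) or the naive GPN pools (0.31, adjusted p = 0.297). For C1qb the difference did not pass by its brightest probe set (0.56, SE 0.37, adjusted p = 0.262). It passed by a second C1qb probe set (DRG minus brain -0.66, SE 0.22, adjusted p = 0.0313).

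The proteases and the inhibitor had another order, with DRG above cord. C1r read 522.6 ± 81.3 in nerve, 141.0 ± 29.5 in DRG, 82.8 in cord (71.3 to 89.8) and 37.7 ± 9.23 in brain. C1s read 552.6 ± 225.2, 61.7 ± 17.2, 33.1 ± 1.29 and 8.20 ± 4.49 in the same tissues, and Serping1 read 397.4 ± 102.5, 96.2 ± 13.7, 69.4 ± 7.57 and 28.8 ± 7.02. Nerve stood above cord by 2.57 for C1r (SE 0.18, adjusted p = 4.32e-08), 3.73 for C1s (SE 0.29, adjusted p = 1.59e-07) and 2.38 for Serping1 (SE 0.19, adjusted p = 2.19e-07) on the log2 scale. Between DRG and cord, 1 of the 3 passed: C1r was 1.64-fold higher in DRG (log2 0.71, SE 0.18, adjusted p = 0.00807), a call lost without the naive GPN pools (0.83, adjusted p = 0.0595). The differences were 0.76 for C1s (SE 0.29, adjusted p = 0.0725) and 0.43 for Serping1 (SE 0.19, adjusted p = 0.118). C1s in brain, at 3.64 to 12.6 in the 3 unligated pools, lay at the bottom of the range of its array, which leaves its brain level poorly measured.

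**Figure D1:**
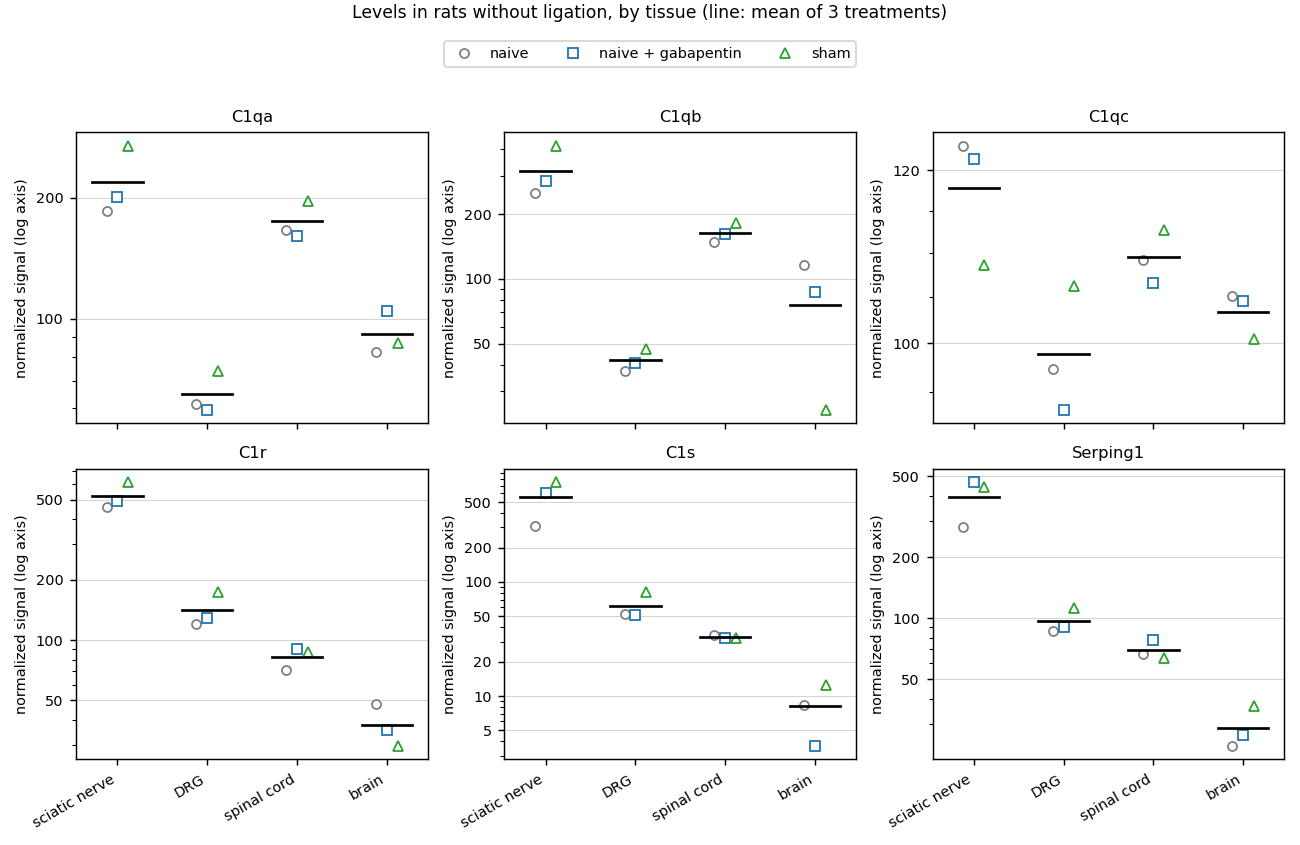
Normalized signal (log axis) of each gene's brightest probe set in rats without ligation, by tissue; each point is 1 treatment averaged over the compartments of the tissue, and the line is the mean of the 3 treatments. C1qa and C1qb are lowest in DRG, at means of 64.8 and 41.8, whereas C1r, C1s and Serping1 are lowest in brain, at 37.7, 8.20 and 28.8.

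Tissue differences were frequent on these arrays, and the members' counts are to be read against that. Of 20000 probe sets tested, 24.7% were called higher in nerve than in cord, where 3 of the 6 members were, 24.8% higher in nerve than in DRG, where 5 were, and 27.2% higher in nerve than in brain, where 5 were. Brain was below cord for 5 members, against 10.3% of probe sets, though without the naive GPN pools only 3 of these passed (C1qb -1.47, adjusted p = 0.125, and C1s -1.26, adjusted p = 0.0669, did not). DRG was above cord for 14.2% of probe sets and below for 13.1%, and 1 member was above and 2 were below. DRG was above brain for 3 members (18.6% of probe sets) and below for 1 (18%).

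Markers of several cell types moved over the tissues as well. Macrophage markers were higher in nerve than in cord for 10 of 14 genes and lower for 1, and higher in nerve than in DRG for 11 of 14. Fibroblast markers were higher in nerve than in cord for 8 of 10 and lower for 1, and Schwann cell markers for 4 of 7 and lower for 1. Of 5 microglia markers tested, 5 were lower in DRG than in cord, as C1qa and C1qb were. In nerve against cord 1 of these 5 was higher and 2 were lower. Csf1r, the receptor for colony stimulating factor that microglia and macrophages share, read 201.2 in nerve and 120.9 in cord, whereas the microglia receptors P2ry12 and Cx3cr1 read 40.9 and 21.3 in nerve and 61.7 and 37.8 in cord. These 3 were picked after their values were seen. The other microglia markers on the arrays read higher in nerve than in cord: Aif1 95.1 and 60.8, Tmem119 17.2 and 16.1, and Siglech 8.42 and 2.67. The Gapdh ratio of the unligated pools was 1.65 to 8.07 in ipsilateral and 2.18 to 3.40 in contralateral nerve, but 1.09 to 1.40 in ipsilateral cord, 1.10 to 1.32 in contralateral cord and 1.08 to 1.36 in brain. In DRG it was 1.18 to 1.60, apart from the sham contralateral L4 pool. Muscle markers were higher in nerve than in cord for 6 of 7. Several defining markers were near the background: the microglia markers Siglech and Tmem119 passed the low-signal limit in 1 and 13 of 52 pools, and the macrophage markers Cd163 and Mrc1 in 13 and 12. The part of these markers and of the Gapdh ratio in the tissue differences was not tested. In such bulk samples, fewer cells of a type and less RNA per cell cannot be told apart.

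In the ipsilateral L5 DRG all 6 genes were higher in both ligated pools than in each unligated pool, and all 6 passed the test. Such a separation was found for 23.5% of the 16746 probe sets tested there; 6.75% were called higher and 8.9% lower. C1qb changed most, about 6-fold on the scale used, and C1qc least, about 1.5-fold, so that the chains of 1 protein differed in the size of the change read by their probe sets.

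C1qb, the B chain, read 37.6 in naive, 40.5 in naive GPN and 43.5 in sham rats, against 286.0 in SNL and 270.5 in SNL GPN. The 3 unligated pools lay close together and far below the ligated ones, and the change was 2.60 on the log2 scale (SE 0.12, 6.08-fold, adjusted p = 2.97e-04). C1qa read 58.9, 63.3 and 79.1 in the unligated pools, in the same order, and 302.8 and 240.0 in the ligated pools, a change of 1.94 (SE 0.17, 3.83-fold, adjusted p = 0.00122). Calls of both chains were kept under each of the 14 alternatives to the processing, including the omission of each pool in turn. C1qa is on array B, whose deposited medians were 25.6 to 29.2 in the unligated and 18.1 to 23 in the ligated pools of this ganglion. At the deposited scaling, the C1qa change was 1.31 (adjusted p = 0.00208), with the median probe set at -0.24.

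C1qc, the C chain, read 89.1 in naive, 103.7 in naive GPN and 111.3 in sham, and 168.8 in SNL and 147.0 in SNL GPN by its brightest probe set. The change of 0.61 (SE 0.14, 1.53-fold, adjusted p = 0.0280) did not overlap between the groups but lost its call without the naive (0.53, adjusted p = 0.0586), naive GPN (0.63, 0.0693), SNL (0.51, 0.161) or SNL GPN pool (0.71, 0.0610). At a common array median the change was 0.42 (adjusted p = 0.0841). The deposited scaling gave 0.48 (adjusted p = 0.130). A different probe set of C1qc, on array C, read 33.5, 35.5 and 45.7 in the unligated pools and 165.6 and 137.6 in the ligated ones. Its change was 1.82 (SE 0.17, 3.54-fold, adjusted p = 0.00139), close to that of C1qa.

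Among the proteases, C1r read 126.6 in naive, 126.8 in naive GPN and 158.3 in sham, against 436.4 in SNL and 292.9 in SNL GPN. Its change of 1.35 (SE 0.19, 2.55-fold, adjusted p = 0.00554) was kept under all 14 alternatives. C1s, the protease that C1r cleaves, read 48.1, 46.0 and 100.1 without ligation, and 510.2 in SNL but 166.2 in SNL GPN. The ligated pools were thus further apart from each other than for any other member, and the change of 2.15 had a large error (SE 0.48, 4.45-fold, adjusted p = 0.0247). It was 1.36 without the SNL pool (adjusted p = 0.111), and the call was also lost without the naive (2.00, 0.0655) or naive GPN pool (1.97, 0.0830).

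Serping1, the only inhibitor of C1r and C1s among the members, read 97.2 in naive, 102.2 in naive GPN and 160.9 in sham rats, and 414.5 in SNL and 273.2 in SNL GPN. The change was 1.47 (SE 0.25, 2.78-fold, adjusted p = 0.0102), and 1.18 without the SNL pool (adjusted p = 0.0724). The sham pool was the highest of the unligated pools for all 6 members in this ganglion, and for 5 of 6, all but C1qb, in the ipsilateral L6 DRG. How often sham was the highest over all probe sets was not counted. The sham L6 pool also had the highest Gapdh ratio of that ganglion, 1.58, and an array B median of 8.1.

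**Figure D2:**
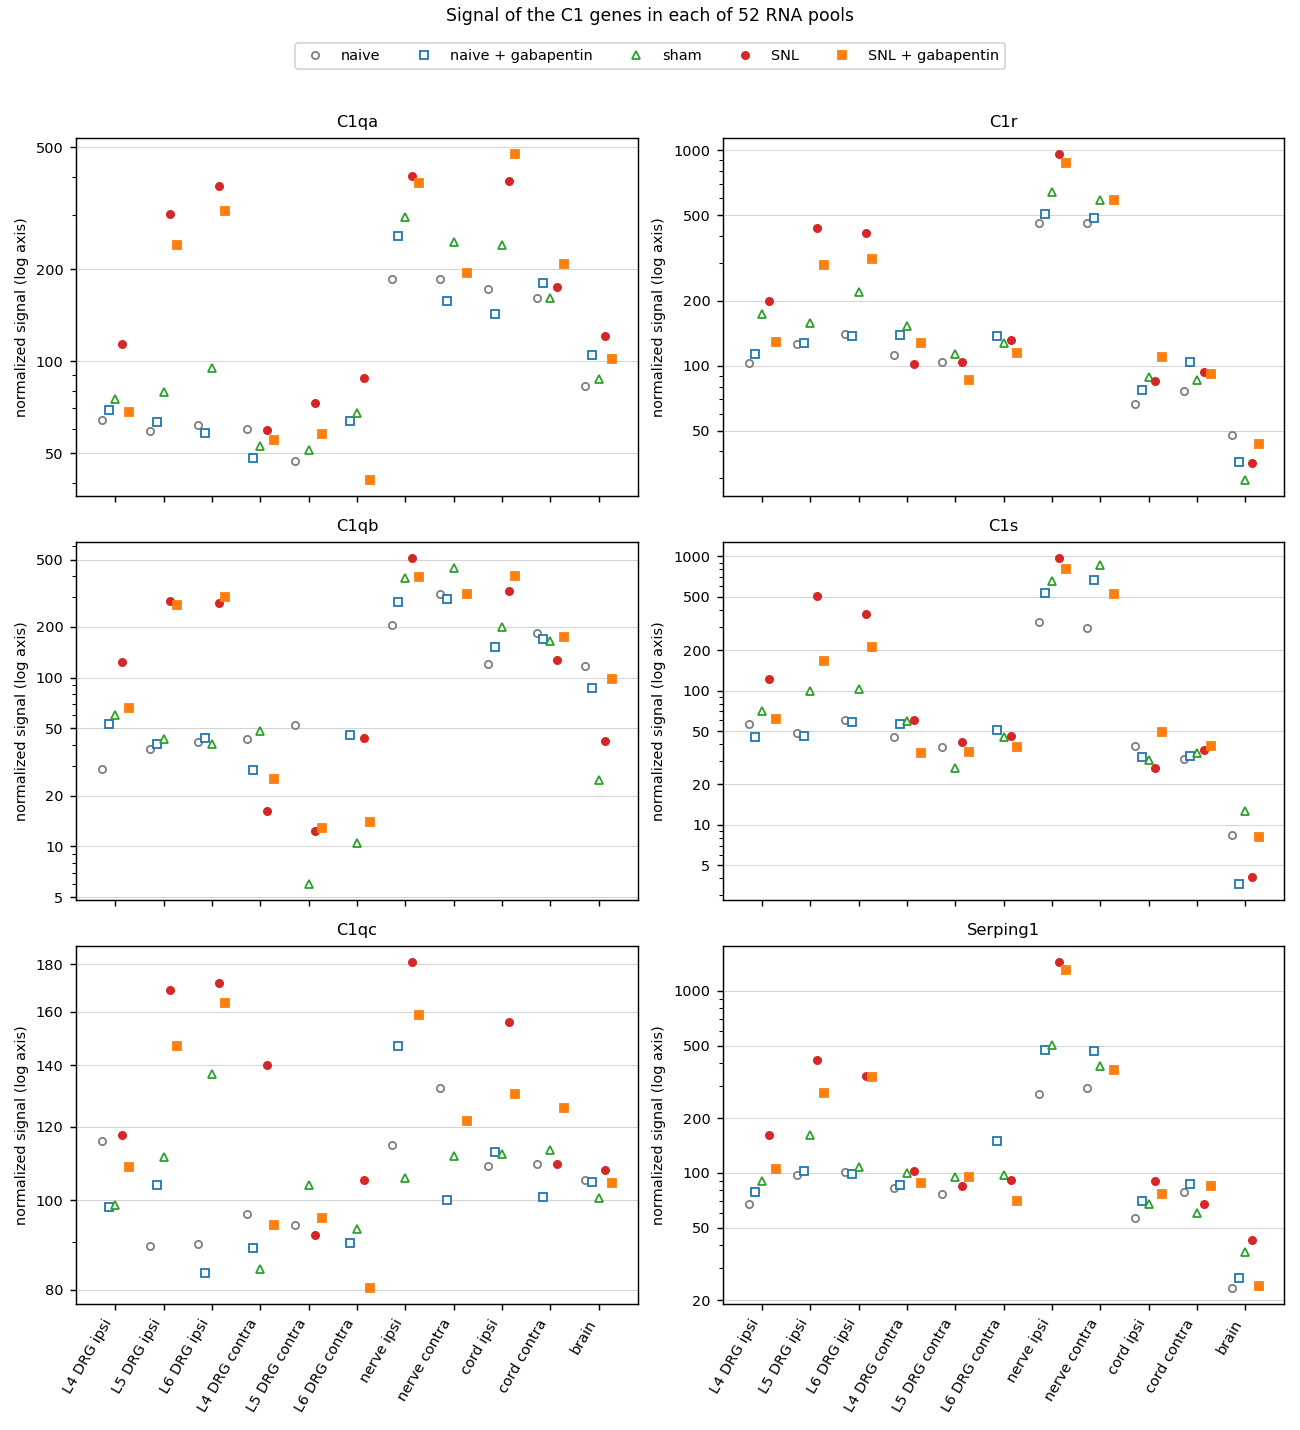
Normalized signal (log axis, a different range for each gene) of the brightest probe set of each C1 gene in all 52 RNA pools, by compartment; open symbols are unligated and filled symbols ligated treatments, 1 pool each. In the ipsilateral L5 DRG the ligated C1qb pools at 286.0 and 270.5 lie above the unligated pools at 37.6 to 43.5, and the SNL pool of C1s at 510.2 lies above SNL GPN at 166.2.

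The ipsilateral L6 DRG, whose spinal nerve was also tied, gave changes of like size. There 5 of the 6 genes passed, against 4.35% of 16901 probe sets called higher. The share of probe sets with both ligated pools above every unligated one, 23.5% in L5, is not given for L6. C1qb read 41.5 in naive, 44.0 in naive GPN and 40.3 in sham, against 277.8 in SNL and 298.7 in SNL GPN, a change of 2.61 (SE 0.16, 6.11-fold, adjusted p = 2.37e-04). C1qa read 61.9, 58.4 and 95.3 without and 373.4 and 308.7 with ligation, a change of 2.19 (SE 0.23, 4.58-fold, adjusted p = 0.00233). Serping1 read 101.1, 98.1 and 107.3, then 342.2 and 334.9, a change of 1.67 (SE 0.15, 3.18-fold, adjusted p = 0.00127). For these 3 genes the ligated pools lay far above every unligated pool, and each call was kept with any 1 pool left out.

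C1s in L6 read 60.7 in naive, 58.8 in naive GPN and 103.5 in sham, and 373.4 and 211.2 in the ligated pools, a change of 1.88 (SE 0.31, 3.67-fold, adjusted p = 0.0109). Without the SNL pool it was 1.47 (adjusted p = 0.0987). C1r read 140.9, 137.5 and 218.8 without and 413.7 and 314.3 with ligation, a change of 1.13 (SE 0.24, 2.18-fold, adjusted p = 0.0276). That call was lost without the naive (1.03, adjusted p = 0.0918), naive GPN (1.01, 0.0759), SNL (0.93, 0.211) or SNL GPN pool (1.32, 0.0702). C1qc was higher in both ligated pools by its brightest probe set but did not pass (0.70, SE 0.23, adjusted p = 0.105), whereas the array C probe set did (1.51, SE 0.25, adjusted p = 0.0114). At the deposited scaling 0 of the 6 genes passed by limma in L6, with C1qb at 2.15 (adjusted p = 0.198) and C1qa at 1.68 (adjusted p = 0.643). There the array B median of the sham pool was 8.1, against 13.7 to 35.3 in the other 4 pools.

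The ipsilateral L4 ganglion, whose spinal nerve was not tied, gave smaller differences. With limma 0 of the 16762 probe sets tested in it passed (0%), although 2380 had an unadjusted p under 0.05, among them 2 of the 6 members. At the deposited scaling 2926 passed, with 0 of the members among them. C1qb read 28.9 in naive, 53.4 in naive GPN and 59.9 in sham rats, and 124.2 in SNL but 65.7 in SNL GPN (change 0.90, SE 0.32, adjusted p = 0.269). Serping1 read 67.2, 78.4 and 89.9, then 161.6 and 105.5 (change 0.70, SE 0.20, adjusted p = 0.195). For C1qa the SNL pool stood alone at 114.1, and SNL GPN at 68.4 lay within the unligated range of 64.1 to 75.4.

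Tested directly, the ligation change was larger in L5 than in L4 for 4 members by their brightest probe sets, against 1.11% of 17770 probe sets. The difference of the 2 changes was 1.61 for C1qa (SE 0.18, adjusted p = 0.0112), 1.70 for C1qb (SE 0.30, adjusted p = 0.0324), 1.02 for C1r (SE 0.17, adjusted p = 0.0280) and 1.58 for C1s (SE 0.27, adjusted p = 0.0286). Serping1 differed by 0.77 (SE 0.18, adjusted p = 0.0629). The direction of each was the same whichever pool was left out, but the calls depended on single pools. Without the naive GPN or the sham pools 0 of the 6 passed (C1qa 1.58 and 1.67, adjusted p = 0.0595 and 0.0639), without SNL GPN 1 passed, and without naive or without SNL 2 did. L6 exceeded L4 for C1qa (1.86, SE 0.25, adjusted p = 0.0144) and C1s (1.31, SE 0.22, adjusted p = 0.0285), with 0.611% of probe sets called. Without the naive, SNL or SNL GPN pools 0 of them passed (C1qa 1.83, 2.08 and 1.65, adjusted p = 0.0684, 0.0695 and 0.158), and without naive GPN C1s did not (1.32, adjusted p = 0.0697). L5 and L6 were not separated for any member: the difference was -0.26 for C1qa (SE 0.19), -0.01 for C1qb (SE 0.20) and 0.28 for C1s (SE 0.26), and 0.0224% of probe sets were called. Other probe sets passed too. In L6 minus L4 a second C1qb probe set gave 1.80 (adjusted p = 0.0204), against 1.71 by the brightest (adjusted p = 0.0693). C1qc there gave 1.52 on array C (adjusted p = 0.0195) and 0.59 by its brightest (adjusted p = 0.313). In L5 minus L4 these C1qc values were 1.83 (adjusted p = 0.0171) and 0.50 (adjusted p = 0.201).

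**Figure D3:**
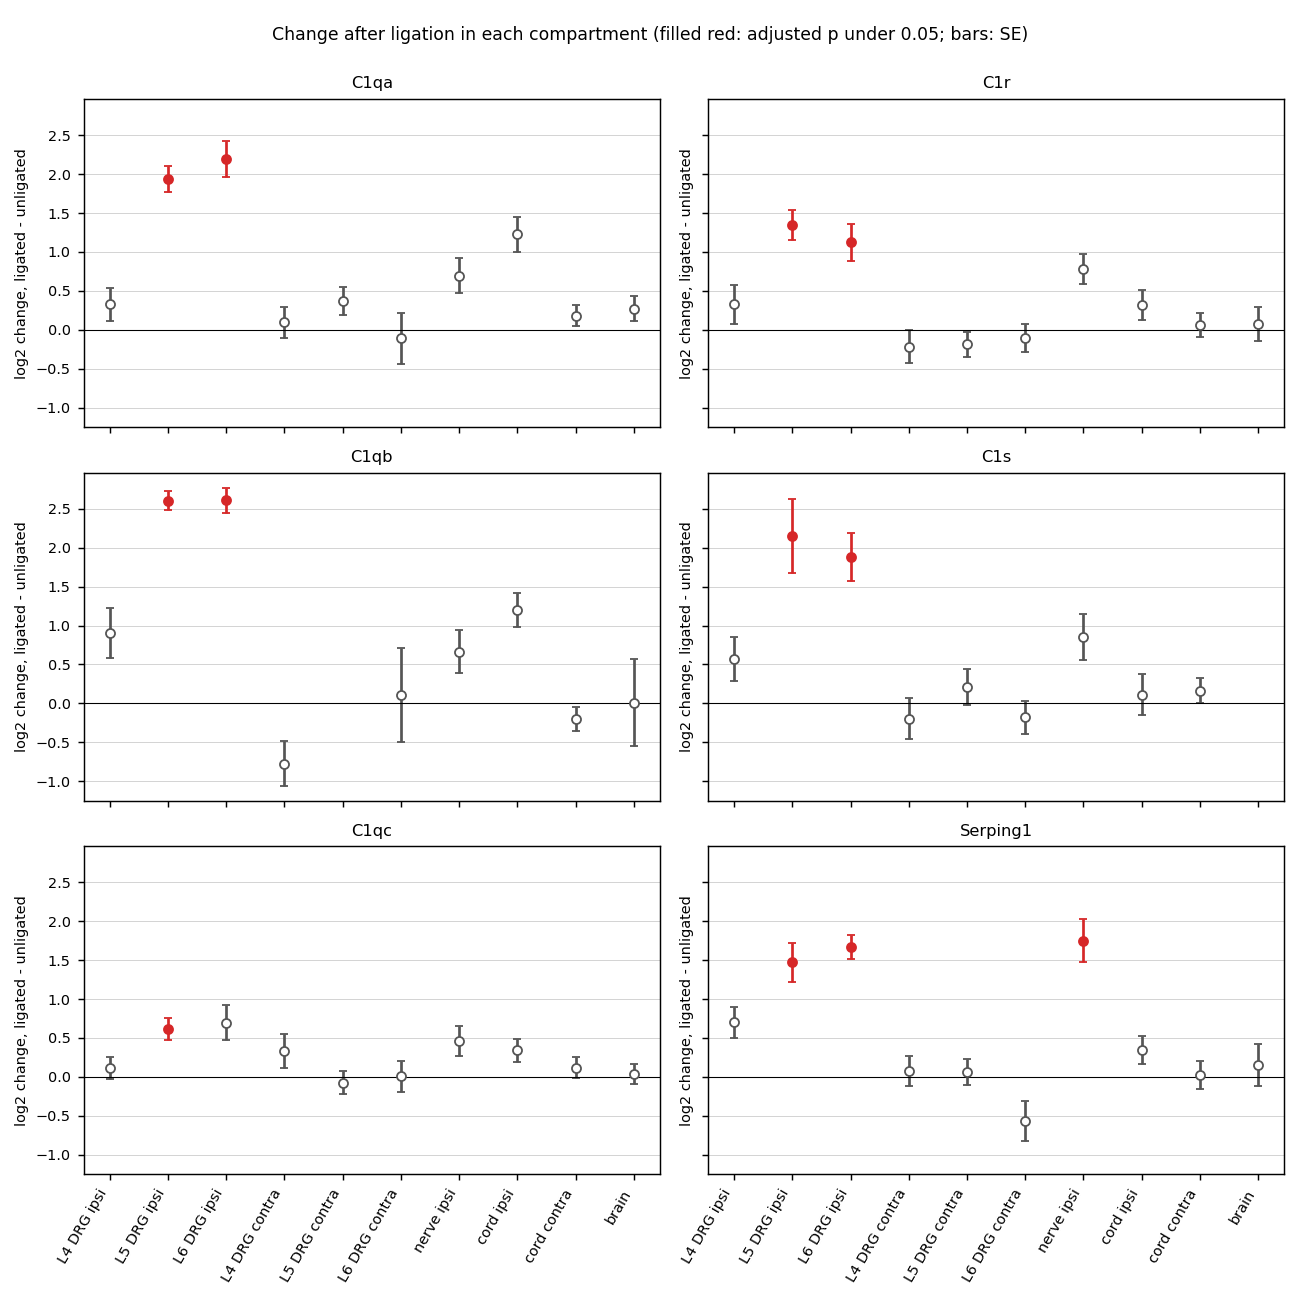
Log2 change with ligation of each gene's brightest probe set in each compartment, with the SE of the fit as bars; filled points passed at an adjusted p under 0.05. All 6 genes passed in the ipsilateral L5 DRG, 5 in L6 and Serping1 alone in the ipsilateral nerve.

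On the contralateral side, 0 members passed in the L4, L5 or L6 DRG with limma, and in each of these ganglia under 0.1% of probe sets did (0%, 0.00612% and 0.0729%). At the deposited scaling 1227 probe sets passed in contralateral L6, in place of 12. An unadjusted p under 0.05 was reached by 1 member, C1qb in L4, where both ligated pools were low: it read 43.0 in naive, 28.3 in naive GPN and 48.1 in sham, and 16.2 in SNL and 24.9 in SNL GPN (change -0.77, SE 0.29, adjusted p = 0.823). C1qb was dim there, and in contralateral L5, with readings of 6.01 to 52.5, it passed the low-signal limit in too few pools to be tested. C1r read 103.7 and 113.8 in the naive and sham contralateral L5 and 104.4 and 85.7 in SNL and SNL GPN. Serping1 in contralateral L6 read 150.5 in naive GPN and 97.4 in sham, and 91.0 and 70.0 in the ligated pools (change -0.57, SE 0.25, adjusted p = 0.504).

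The difference between sides was tested on 4 treatments for L5 and 4 for L6. In L5 it passed for C1qa (1.54, SE 0.20, adjusted p = 0.0328) and C1r (1.49, SE 0.19, adjusted p = 0.0328), with 0.353% of 17570 probe sets called. Without the naive, SNL or SNL GPN pools 0 members passed, with C1qa at 1.40, 1.53 and 1.55 (adjusted p = 0.144, 0.115 and 0.100); without sham these 2 genes did not pass either (C1qa 1.68 and C1r 1.58, adjusted p = 0.0755 and 0.0785). In L6 it passed for C1qa (2.22, SE 0.34, adjusted p = 0.0162), C1s (1.94, SE 0.37, adjusted p = 0.0354) and Serping1 (2.23, SE 0.31, adjusted p = 0.0103), with 0.911% called. The array C probe set of C1qc passed there as well (1.52, SE 0.31, adjusted p = 0.0421). Neither the brightest C1qb probe set nor the second did (2.49 and 1.87, adjusted p = 0.0602 and 0.118). C1s lost its call without naive GPN (1.49, adjusted p = 0.0660) or SNL (1.65, adjusted p = 0.119). In the contralateral L5 comparison both unligated pools had received vehicle, so the drug is not balanced there.

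Markers of other cells changed in the same ganglia. In ipsilateral L5, 10 of 12 macrophage markers tested rose and 0 fell, with a median change of 1.24. The summed signal of the 14 on the arrays was 3706 to 3814 in the ligated and 1258 to 1740 in the unligated pools. Such sums, here and below, mostly follow the brightest probe sets of a list. In unligated DRG Lgals3 and Lyz2 read 506.4 and 351.8, and each other macrophage marker 130.5 or less. Of 4 microglia markers tested 2 rose, Aif1 by 1.35 and Csf1r, which macrophages share, by 1.18. The 6 microglia markers on the arrays summed to 274.3 to 286.0 against 109.9 to 149.2. Of 10 fibroblast markers 6 rose (9161 to 15070 against 5630 to 6879). Schwann cell markers had 0 rises and 1 fall among 7, with sums of 8222 to 10207 against 9411 to 12307 that overlap. Of 7 neuron markers 5 fell (8807 to 10280 against 16750 to 17784), and muscle markers summed to 2221 to 6691 against 339 to 3173. The median change over all probe sets was -0.00. In ipsilateral L6, 10 of 13 macrophage markers, 2 of 4 microglia markers and 4 of 10 fibroblast markers rose. How far these shifts in marker signal account for the changes in the C1 genes was not tested.

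In the sciatic nerve beyond the ligation, Serping1 was the only member that passed, and its signal there was the highest of any pool. It read 269.4 in naive, 472.6 in naive GPN and 506.1 in sham, against 1437.3 in SNL and 1296.6 in SNL GPN, a change of 1.75 (SE 0.28, 3.37-fold, adjusted p = 0.0168). Of 16925 probe sets, 2.2% were called higher. Without the naive pool, whose Gapdh ratio was 8.07, the change was 1.47 (adjusted p = 0.0237), and without sham 1.92 (adjusted p = 0.0197). The call was lost without SNL (1.68, adjusted p = 0.177), when 0 probe sets passed at all, and without SNL GPN (1.82, adjusted p = 0.0969), when 178 did.

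The other 5 members were also higher in both ligated nerves than in each unligated one, without passing. C1r read 458.8 in naive, 504.1 in naive GPN and 643.0 in sham, then 962.4 and 875.4 (change 0.79, SE 0.19, adjusted p = 0.0711). C1s read 324.8, 535.8 and 656.4, then 974.5 and 802.9 (0.86, SE 0.30, adjusted p = 0.169). The unligated nerves spread widely, with naive lowest and sham highest for C1qa, C1qb, C1r, C1s and Serping1. C1qa read 184.9, 255.8 and 295.4 without and 403.9 and 382.9 with ligation (0.70, SE 0.22, adjusted p = 0.144), and C1qb 203.9, 279.2 and 387.0 without and 511.0 and 394.0 with it (0.67, SE 0.28, adjusted p = 0.246). SNL GPN exceeded sham by little for C1qb. Groups that did not overlap in this direction made up 19.4% of all probe sets in this nerve.

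The contralateral nerve had no SNL pool to test. Its SNL GPN pool read 367.2 for Serping1, against 291.2 in naive, 466.4 in naive GPN and 387.0 in sham, and so lay inside the unligated range. The same held for C1qb (311.7 against 290.8 to 447.7), C1s (524.4 against 292.7 to 861.5) and C1qa (194.3 against 157.1 to 246.0).

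Compared directly, C1qa and C1qb changed less in nerve than in L5 DRG. The difference was -1.24 for C1qa (SE 0.22, adjusted p = 0.0262) and -1.94 for C1qb by its brightest probe set (SE 0.26, adjusted p = 0.00943), with 1.73% of 18395 probe sets called lower. The difference by the second C1qb probe set was -1.33, without a call (SE 0.36, adjusted p = 0.0929). For C1qc it was -0.15 by the brightest probe set (SE 0.24, adjusted p = 0.808) and -0.79 by the one on array C (SE 0.29, adjusted p = 0.196), for Serping1 0.28 (SE 0.27, adjusted p = 0.656) and for C1s -1.30 (SE 0.40, adjusted p = 0.130). Both calls were lost without SNL (-1.12 and -2.08, adjusted p = 0.285 and 0.101) and without SNL GPN (-1.37 and -1.79, 0.148 and 0.103). C1qa was lost without naive GPN (-1.17, 0.0562) and without sham (-1.21, 0.0661) as well.

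Cell type markers in nerve moved in several directions. Macrophage markers rose for 3 of 14, and their sum was 5265 to 5297 in the ligated against 1905 to 3593 in the unligated pools. Microglia markers had 0 calls among 5 and overlapping sums, 370 to 423 against 286 to 537. Schwann cell markers had 1 rise and 1 fall, and a sum of 10807 to 11140 against 14385 to 15672. In unligated nerve Pmp22, Prx and S100b read 6994, 3589 and 3070, and each other Schwann cell marker 362.3 or less. Fibroblast markers had 1 rise and 0 falls among 10, with a sum of 19842 to 20585 against 17124 to 19212. Endothelial markers had 0 rises and 1 fall among 7, with a sum of 494 to 550 against 846 to 890. Muscle marker signal was lower with ligation, 795 to 6082 against 6200 to 14138, and so was adipocyte marker signal, 1451 to 1640 against 2251 to 3407. The part of muscle, fat and RNA quality in the nerve values was not tested.

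In the ipsilateral spinal cord, where the central ends of the injured axons terminate, the C1q chains were higher in both ligated pools, without a call. With limma 0 of 16759 probe sets passed there (0%), and 464 had an unadjusted p under 0.05, including C1qa and C1qb. C1qa read 172.1 in naive, 143.0 in naive GPN and 239.5 in sham, against 387.6 in SNL and 475.9 in SNL GPN, the highest C1qa signal of all 52 pools (change 1.23, SE 0.22, 2.34-fold, unadjusted p = 8.15e-04). C1qb read 119.7, 152.8 and 200.1, then 327.8 and 400.0 (1.20, SE 0.22, unadjusted p = 8.68e-04). The brightest probe set of C1qc changed by 0.34 (SE 0.15, unadjusted p = 0.0587). Its array C probe set read 45.8, 49.2 and 63.1, then 111.5 and 138.2 (1.15, SE 0.20, unadjusted p = 5.21e-04). Adjusted p-values of all these were above 0.99.

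C1r and C1s did not share this separation in the cord. C1r read 66.5, 76.9 and 88.5 in the unligated pools and 85.3 and 110.2 in the ligated ones (0.31, SE 0.19), and C1s read 38.4, 31.9 and 30.5, then 26.7 and 49.4 (0.11, SE 0.27). Serping1 was 56.2 to 70.1 without and 76.9 to 90.2 with ligation (0.34, SE 0.18). The groups did not overlap for C1qa, C1qb, C1qc and Serping1, as for 8.51% of probe sets. On the contralateral side of the cord C1qa read 161.0, 180.6 and 161.2, then 174.6 and 208.3, and C1qb read 184.1, 169.6 and 165.2, then 127.8 and 174.5. The ipsilateral minus contralateral difference was 1.04 for C1qa (SE 0.25, unadjusted p = 0.00283) and 1.40 for C1qb (SE 0.25, unadjusted p = 4.46e-04), and limma called 0% of probe sets after adjustment (adjusted p = 0.897 for both genes). By its second probe set, C1qb changed less in cord than in L5 DRG without a call (difference -1.14, SE 0.32, adjusted p = 0.128). By its brightest probe set the change in cord was smaller by 1.41 (SE 0.23, adjusted p = 0.0405), with 0.336% of probe sets called lower. That call was lost without naive GPN (-1.41, adjusted p = 0.104), sham (-1.27, 0.0993), SNL (-1.23, 0.296) or SNL GPN (-1.59, 0.149). Macrophage marker sums in the ipsilateral cord were 2619 to 2748 with and 1776 to 2315 without ligation. Microglia marker sums were 388 to 451 and 260 to 354, with 0 calls in either list. In unligated cord the macrophage marker Ctss alone read 1206.3, and each other marker of its list 185.5 or less.

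In the brain 0 members passed (0% of 16690 probe sets). C1qa read 82.7, 104.6 and 87.1 without and 120.7 and 101.5 with ligation, and C1qb spread from 24.7 in sham to 116.6 in naive. C1s was too dim there to be tested.

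**Figure D4:**
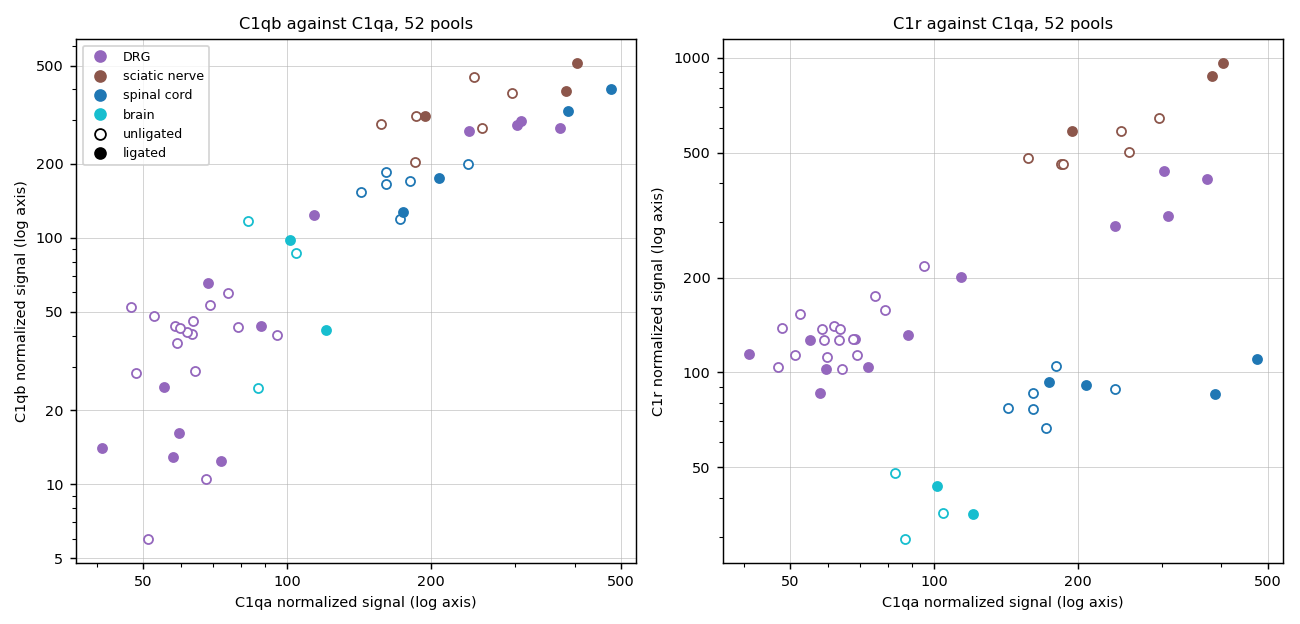
Normalized signal of C1qb (left) and C1r (right) against C1qa over the 52 pools (both axes log), coloured by tissue, with filled symbols for ligated pools. Cord pools reach C1qa signals of up to 475.9 with C1r at or below 110.2, whereas nerve pools combine C1qa of 157.1 to 403.9 with C1r of 458.8 to 962.4.

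By the likeness of their levels over the 52 pools, described here by Pearson's r of log2 values, C1r, C1s and Serping1 stood together, and so did C1qa and C1qb. The pools share tissues and treatments and are not independent, so no p is given. C1r correlated with C1s at 0.98 and with Serping1 at 0.96, and C1qa with C1qb at 0.91. Between the groups the values were lower, at 0.49 for C1qa with C1r, 0.53 for C1qa with C1s and 0.55 for C1qa with Serping1. After subtraction of each compartment's mean, which removes the tissue pattern, C1qa and C1r correlated at 0.84, C1qa and Serping1 at 0.80 and C1qa and C1qb at 0.78. The remaining pairs between the groups were C1qb with C1r at 0.79, C1qa with C1s at 0.78, C1qb with C1s at 0.67 and C1qb with Serping1 at 0.64. Among C1r, C1s and Serping1 the values were 0.80 to 0.85. On this scale C1qa and C1qb were thus not closer to each other than C1qa was to C1r. These values include dim C1qb readings, down to 6.01 in contralateral L5 DRG. C1qb passed the low-signal limit in 46 of 52 pools, and C1qa and C1r in all 52. C1qc was nearest to C1qa on both scales (0.78 and 0.79), and after the subtraction its value was 0.53 with C1qb and 0.62 to 0.69 with the proteases and the inhibitor.

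By the same measure, the genes whose levels were most like C1qa were Fcer1g (0.96), Pld4 (0.93) and Csf1r (0.93), and those most like C1qb were Csf1r (0.92), Pld4 (0.91) and C1qa (0.91). For C1qc they were Irf8 (0.81) and Gm2a (0.79), for C1r C1s, Gpc3 and Col5a2 (0.98, 0.97 and 0.97), and for C1s C1r, Ifitm3 and Fn1 (0.98, 0.97 and 0.97). Serping1 was followed by C1r, C1s and Arpc1b (0.96, 0.96 and 0.95). With compartment means removed, Fcer1g was first for both C1qa (0.92) and C1r (0.88), Adamts1 for C1s (0.89), Atf3 for Serping1 (0.90) and Myl12a for C1qb (0.84). Fcer1g encodes the signalling chain of Fc receptors, Irf8 a transcription factor of myeloid cells, Col5a2 and Fn1 proteins of the extracellular matrix, and Atf3 a transcription factor induced in injured neurons.

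The 10 probe sets did not all read their gene equally well. The 2 probe sets of C1qb agreed (r = 0.97 over 52 pools), and the second changed by 2.34 in L5 DRG (adjusted p = 0.00103). C1qc had 4. Its brightest on array A varied only 2.25-fold between the lowest and the highest pool, while the one on array C varied 13.3-fold and correlated with it at 0.75. The other pair on array A passed the low-signal limit in 3 of 52 pools each and had correlations of 0.50 and 0.70 with the brightest. In unligated nerve the array C probe set exceeded cord by 1.21 (SE 0.17, adjusted p = 3.59e-05) and the brightest by 0.10 (SE 0.10, adjusted p = 0.449). Statements on C1qc therefore depend on the probe set.

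**Figure D5:**
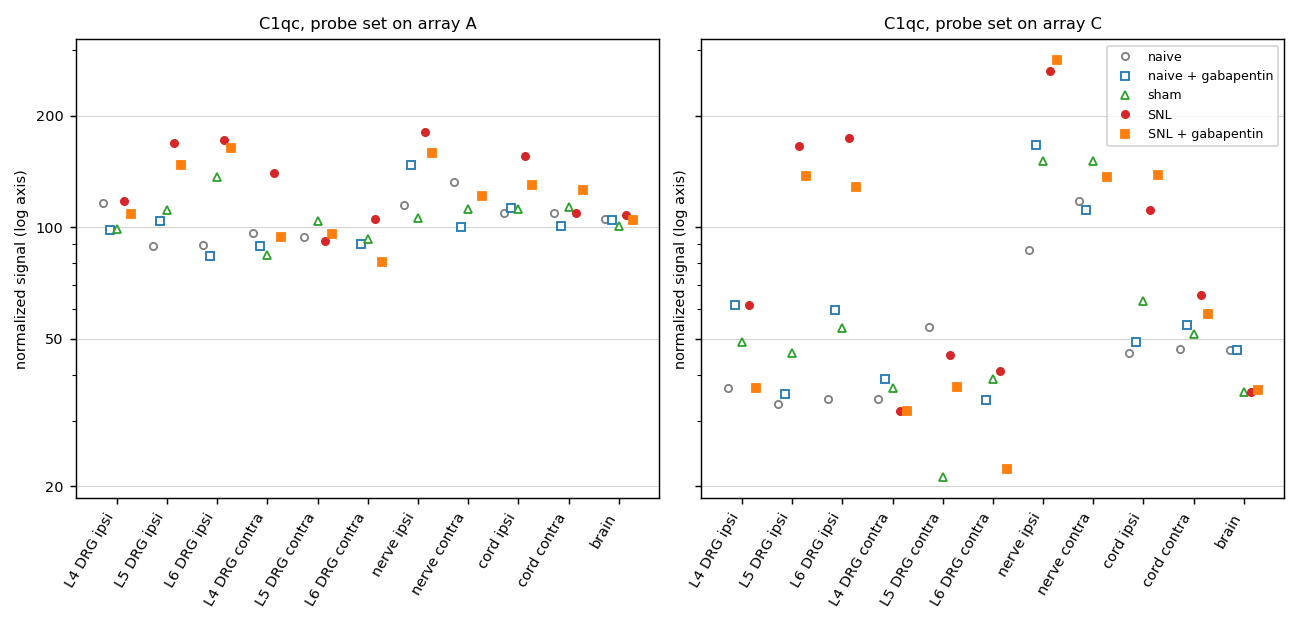
Normalized signal (1 log axis for both panels) of the C1qc probe sets on array A (left) and array C (right) in all 52 pools, by compartment. The array A values span a 2.25-fold range, from 80.3 to 181.0, and the array C values a 13.3-fold range, with L5 DRG pools at 33.5 to 45.7 without and 137.6 to 165.6 with ligation.

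The drug was tested in a fit that also held ligation, and 0 of the members passed in the mean of 8 compartments, L5 DRG, ipsilateral nerve or ipsilateral cord. By limma 0% of probe sets were called in each of these, of 20370, 16746, 16925 and 16759 tested, with 531, 630, 457 and 525 at an unadjusted p under 0.05. C1s came nearest. It was lower with gabapentin by 0.99 in L5 DRG (log2 -0.99, SE 0.35, unadjusted p = 0.0290, adjusted p = 0.991) and by 0.29 in the mean of 8 compartments (-0.29, SE 0.13, unadjusted p = 0.0562). In L5 DRG the values were -0.41 for Serping1 (SE 0.22), -0.33 for C1r (SE 0.16), -0.20 for C1qa (SE 0.17) and -0.03 for C1qb (SE 0.13).

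Setting the SNL GPN pool against the SNL pool, 1 against 1 and so without a test, C1s was lower in 7 of 10 compartments, with differences from -1.58 in ipsilateral L5 DRG to 0.75 in ipsilateral cord and a median of -0.25. C1qa and Serping1 were lower in 8 of 10 (medians -0.25 and -0.21), C1qc in 8 (-0.15), C1r in 7 and C1qb in 4. In naive rats the drug was set against vehicle in 9 compartments, and the naive GPN pool was higher in 8 for Serping1 (median 0.14), in 7 for C1r (0.13), in 5 for C1qa and C1qb, in 4 for C1s and in 3 for C1qc. Against naive, sham was higher in 9 of 10 compartments for C1qa, C1r and Serping1 and in 8 for C1s, with medians of 0.31, 0.36, 0.34 and 0.36, but in 6 for C1qb and 5 for C1qc. These counts share pools of the same rats across tissues if the same animals gave several tissues, which the labels do not state. Nor was it counted how often probe sets in general moved alike between these pools. The counts therefore have no baseline and give no measure of an effect of sham surgery or drug.

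Other genes of the complement pathway changed as well. Their list had 42 genes, of which 34 were on the arrays. In ipsilateral L5 DRG 19 could be tested, with 4 rises, 1 fall and a median change of 0.17. The rises were in C3, the central component that all routes cleave (1.84, adjusted p = 0.00781), C2, a substrate of C1s (0.94, adjusted p = 0.00652), C4a, another substrate (0.71, adjusted p = 0.0300), and properdin, Cfp, which stabilises the alternative convertase (0.48, adjusted p = 0.0387). C4a has a near-identical paralog, C4b, which these probes may also read. C1qbp, a mainly mitochondrial protein that can bind C1q, fell (-0.47, adjusted p = 0.0308). In L6 DRG C3 (2.86) and C2 (0.92) rose among 20 tested, and Cd55, a membrane inhibitor of the convertases, fell (-1.24). In nerve 3 of 21 rose: C3 (2.52, adjusted p = 0.00678), the protease factor I, Cfi, which inactivates C3b and C4b (1.24, adjusted p = 0.0289), and clusterin, Clu, an inhibitor of the terminal complex (1.08, adjusted p = 0.0295). In ipsilateral cord 0 of 19 passed.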

How the data were processed

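The authors deposited linear intensity values per probe set, computed with MAS5 per the submitters' processing notes; its version and scaling target were not stated in these sources. Each of 52 pools was hybridised to arrays A, B and C (156 arrays). Of 26379 probe sets 177 were controls and were left out, 18178 carried 1 symbol, 391 several and 7633 no symbol; Entrez identifiers led to current names for 18122 through the RefSeq table of GRCr8, which served for names and gene order only. Arrays of each set were quantile normalized over all 52 pools, so that levels can be compared across compartments. Log2(signal + pseudocount) used the 20th percentile of each set (6.30, 5.11 and 6.68 for A, B and C). A probe set was tested where it exceeded its array's 40th percentile in 2 or more pools of the comparison. Tests were two-sided with limma 3.58.1 (lmFit, eBayes with trend) in R 4.3.3, adjusted by Benjamini-Hochberg over all tested probe sets, threshold 0.05. To compare compartments, the log2 values of a treatment were first subtracted from each other and the differences tested. The scripts were tested on simulated data. The brightest probe set by mean log2 value stands for each gene, and like genes are those with the highest Pearson r. The number of pools limits precision. The members and gene lists were chosen with earlier results of these data known. Alternatives were other normalizations, pseudocounts, filters, variance models, covariates and the omission of each pool.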

Additional observations from a re-analysis of the deposited data

Results flagged for a closer look

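By each gene's brightest probe set, the ligation change of 6 comparisons between compartments differed for a member by limma on the difference itself, on the log2 scale. Calls of the other probe sets of C1qb and C1qc differed in part and are given above. L5 exceeded L4 DRG by 1.61 for C1qa, 1.70 for C1qb, 1.02 for C1r and 1.58 for C1s, and L6 exceeded L4 by 1.86 for C1qa and 1.31 for C1s. The ipsilateral exceeded the contralateral change in L5 by 1.54 for C1qa and 1.49 for C1r, and in L6 by 2.22 for C1qa, 1.94 for C1s and 2.23 for Serping1. The change in nerve was below that in L5 DRG by 1.24 for C1qa (difference -1.24) and by 1.94 for C1qb (difference -1.94), and that in cord was below it for C1qb (difference -1.41). All 14 kept their sign with any 1 treatment left out. C1qa and Serping1 between the sides of L6 kept their calls in each of those fits, and the other 12 lost theirs in at least 1.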

How the results depend on the processing

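The labels carry no replicate numbers, so pairing was by treatment: differences between compartments were taken within each treatment, and with treatment as a block the tissue contrasts called 4 members in place of 3 for DRG against cord and as many as reported in the other 5. Of 51 called member values, tried under 616 alternatives in all, 498 kept the call, 118 lost it and 0 changed direction. The counts of members called that moved by over 1.5 times are given here, and the L5 DRG count went from 6 to 5 at both the deposited scaling and a common array median. At the deposited scaling they went from 5 to 0 in L6 DRG, 0 to 1 in contralateral L6 (Serping1 -1.27, adjusted p = 0.0267), 4 to 2 for L5 minus L4, 2 to 0 for L6 minus L4, 2 to 1 for the sides of L5, 3 to 0 for those of L6, 0 to 1 for those of the cord and 2 to 1 for nerve minus L5. At a common array median they were 1 for L5 minus L4, 0 for the sides of L5, 1 for nerve minus L5, 0 for cord minus L5, and 6 instead of 3 for nerve against cord. With no filter they were 1 for L5 minus L4, L6 minus L4 and the sides of L6, and 0 for the sides of L5 and cord minus L5. With no mean-variance trend they were 0 for L5 minus L4, L6 minus L4, the sides of L5 and of L6, and cord minus L5, and 1 for nerve minus L5. With 1 spread shared by all compartments the nerve count was 4. Where an omission left 1 pool in a group, that pool was assumed to vary like the others. With 1 pool left out the counts ranged from 3 to 6 in L5 DRG, 3 to 6 in L6, 0 to 2 in nerve, 0 to 2 for L5 minus L4, 0 to 2 for L6 minus L4, 0 to 1 for the sides of L5, 2 to 5 for those of L6, 0 to 2 for nerve minus L5, 0 to 1 for cord minus L5 and 3 to 5 for brain against cord. The deposited scaling moved the median probe set by 0.49 in ipsilateral L4, -0.28 in L6, -0.52 in contralateral L6, -0.56 in contralateral cord and 0.33 in nerve. The split of calls in L5 DRG was 1130 higher and 1490 lower as reported, 665 and 2059 at a common median and 469 and 2609 at the deposited scaling. The causes were not tested. Array signal near background limits C1s in brain and C1qb in contralateral DRG.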
